A study of Mus musculus with 5 samples.

Results

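The guanylate-binding proteins (GBPs) are a family of large interferon-induced GTPases, and the transcripts of 10 Gbp genes were measured here in mouse kidney. The genes were chosen by symbol: Gbp2 to Gbp11 as named in GENCODE release M21, 10 of the 54532 gene IDs in the count table. The rule uses no measured value, but the family was chosen with earlier results of these data known. All libraries came from kidneys of wild-type male C57BL/6J mice aged 8 weeks, given intraperitoneal injections daily for 3 days and sampled on day 3. The DMXAA group (2 libraries) received DMXAA at 10 mg/kg, and the vehicle group (3 libraries) received vehicle alone. DMXAA is a drug that binds and switches on mouse STING, a membrane adaptor that turns on interferon genes when DNA appears in the cytosol. The comparison asks which transcripts differed after it. The sources used here do not say whether the libraries are of different mice, so p-values measure the spread between these samples, which may be technical.

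GBPs belong to the dynamin superfamily, with a GTP-binding head and a long helical tail, and assemble on membranes. They are induced mainly by interferon-gamma and also by type I interferon, in part through the transcription factor IRF1. In infected mouse cells they coat the vacuoles of parasites and bacteria, help to break them open, and bring the contents to inflammasomes. Some members carry a C-terminal lipid anchor. In the mouse the genes lie in a cluster on chromosome 3 (Gbp2, Gbp3, Gbp5 and Gbp7 among the genes studied here) and a cluster on chromosome 5 (Gbp4, Gbp6, Gbp8, Gbp9, Gbp10 and Gbp11).

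The promoters of the chromosome 3 members are shown first, because interferon-activated factors are known to bind there. RefSeq promoter windows on GRCm38.p6, from 250 bases before to 50 bases after the annotated start, were matched by symbol for 4 of the 10 genes. Capitals mark every match, on either strand, to the interferon-stimulated response element (GAAA, any 2 bases, GAAA) or the gamma-activated site (TTCNNNGAA). All 4 windows are on the plus strand.
Gbp2, chr3:142620413-142620712: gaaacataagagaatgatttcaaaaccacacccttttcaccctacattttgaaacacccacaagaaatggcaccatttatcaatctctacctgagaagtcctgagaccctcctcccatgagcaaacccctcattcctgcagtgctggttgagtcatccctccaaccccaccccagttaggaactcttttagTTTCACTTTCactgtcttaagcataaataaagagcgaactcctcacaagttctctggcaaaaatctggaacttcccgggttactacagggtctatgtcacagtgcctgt
Gbp3, chr3:142559794-142560093: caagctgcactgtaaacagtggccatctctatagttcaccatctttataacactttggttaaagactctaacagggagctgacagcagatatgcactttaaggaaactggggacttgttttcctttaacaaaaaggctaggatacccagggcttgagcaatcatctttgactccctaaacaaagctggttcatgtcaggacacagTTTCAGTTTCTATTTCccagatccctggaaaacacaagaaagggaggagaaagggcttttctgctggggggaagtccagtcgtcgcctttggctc
Gbp5, chr3:142496684-142496983: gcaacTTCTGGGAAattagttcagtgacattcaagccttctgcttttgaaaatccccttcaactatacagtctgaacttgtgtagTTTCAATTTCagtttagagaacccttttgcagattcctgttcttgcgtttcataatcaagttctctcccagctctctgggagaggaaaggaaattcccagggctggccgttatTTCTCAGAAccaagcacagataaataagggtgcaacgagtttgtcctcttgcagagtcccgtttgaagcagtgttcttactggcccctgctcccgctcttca
Gbp7, chr3:142530086-142530385: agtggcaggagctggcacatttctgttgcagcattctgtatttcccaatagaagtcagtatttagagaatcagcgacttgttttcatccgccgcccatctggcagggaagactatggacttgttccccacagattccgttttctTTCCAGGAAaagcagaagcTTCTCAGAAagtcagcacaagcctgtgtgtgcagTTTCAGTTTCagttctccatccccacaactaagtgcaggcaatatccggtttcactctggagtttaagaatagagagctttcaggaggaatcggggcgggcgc
Each of the 4 windows held the response element, read on the minus strand. The matches lay at positions -59 to -50 in Gbp2, -53 to -44 in Gbp7 and -165 to -156 in Gbp5, counted from the annotated start as 0. Gbp3 had a pair of overlapping matches, at -45 to -36 and -39 to -30, and the window of its second annotated start had none. Of all 32851 RefSeq promoter windows, 3.44% held a response element, and counted by symbol 3.99% of 27025 genes did. The gamma-activated site was found in Gbp5, at -245 to -237 and -52 to -44, and in Gbp7, at -106 to -98 and -87 to -79, and in 8.30% of all windows. The site at -52 in Gbp5 and the one at -87 in Gbp7 have the same letters, TTCTCAGAA. These matches describe the letters of the windows and were not tested for binding. No window was matched for Gbp4, Gbp6, Gbp8, Gbp9, Gbp10 or Gbp11.

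The chromosome 5 members are near-copies of one another, which bears on how their reads could be counted. The first 90 bases of their longest annotated coding sequences (GENCODE M21, GRCm38, minus strand) show this, with capitals at each base that differs from Gbp6.
Gbp6: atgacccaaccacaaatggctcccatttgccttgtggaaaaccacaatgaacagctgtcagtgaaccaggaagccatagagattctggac
Gbp10: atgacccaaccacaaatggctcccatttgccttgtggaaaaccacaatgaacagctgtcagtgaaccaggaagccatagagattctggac
Gbp4: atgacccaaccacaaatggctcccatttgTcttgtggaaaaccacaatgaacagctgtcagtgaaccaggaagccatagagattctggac
Gbp11: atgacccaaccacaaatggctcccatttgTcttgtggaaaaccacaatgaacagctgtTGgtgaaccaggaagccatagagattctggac
Gbp9: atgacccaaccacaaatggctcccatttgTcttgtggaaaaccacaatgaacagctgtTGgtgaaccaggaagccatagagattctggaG
Gbp8: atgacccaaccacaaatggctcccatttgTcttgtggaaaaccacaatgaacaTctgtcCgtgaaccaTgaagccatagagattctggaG
Gbp10 was identical to Gbp6 over this stretch, and Gbp4 differed from it at 1 base, Gbp11 at 3, Gbp9 at 4 and Gbp8 at 5. Over the whole coding sequence Gbp6 and Gbp10 differed at 30 of 1833 bases, with no gap. The next pair shows the stretch, coding bases 1556 to 1645, in which they differ most, at 12 of 90 bases, with capitals at the differing bases.
Gbp6: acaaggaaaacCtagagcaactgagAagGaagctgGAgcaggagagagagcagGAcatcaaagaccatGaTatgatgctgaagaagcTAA
Gbp10: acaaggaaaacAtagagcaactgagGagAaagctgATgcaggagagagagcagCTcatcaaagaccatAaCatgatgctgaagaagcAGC
Among the 15 chromosome 5 pairs the aligned coding bases were 89.6% to 98.4% identical, against 60.3% to 78.3% among the 6 chromosome 3 pairs and 61.0% to 75.0% across the chromosomes. Windows of 100 bases from annotated transcripts were then matched exactly, on either strand, to the transcripts of all other genes. Of the Gbp10 windows 73.5% were also found in another gene, and of the Gbp6 windows 64.5%. The shares were 10.0% for Gbp7, 5.13% for Gbp11, 4.39% for Gbp8, 1.65% for Gbp9, 1.64% for Gbp4 and under 1% for Gbp2 (0%), Gbp3 (0.694%) and Gbp5 (0.142%). A further annotated gene, Gm43302, shares 29.0% of the exonic bases of Gbp6 and 46.3% of those of Gbp10, and had 0 counts in every library except 2 counts in vehicle library 2. Levels of Gbp6 and Gbp10, and differences between the pair, are therefore uncertain, and the handling of reads that map to several genes is not given in the sources used here.

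**Figure D1:**
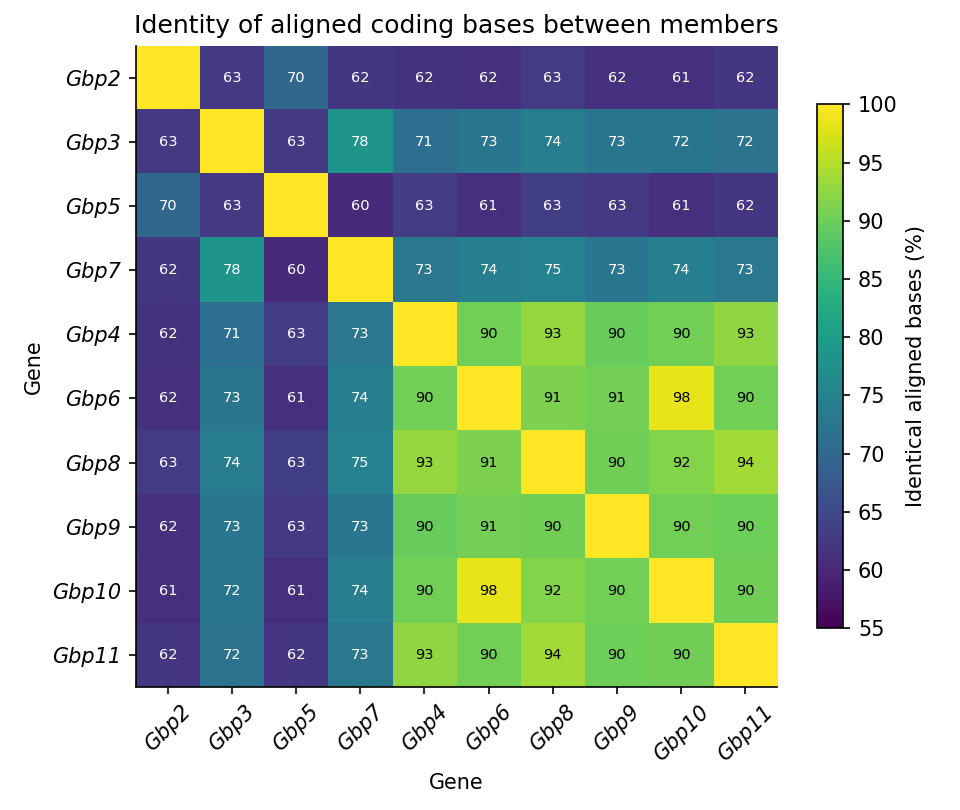
Percentage of identical bases among aligned coding bases for each pair of the 10 genes, with both axes listing genes, chromosome 3 members first. The 6 chromosome 5 members form a block at 89.6% to 98.4%, with Gbp6 and Gbp10 the closest pair.

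The libraries held 18176586 and 20264228 counts in the DMXAA group and 17667490, 18552912 and 17712843 in the vehicle group. Levels are given as CPM, counts scaled to a common library size with TMM factors. With 3 counts as the limit, a gene at 0 could still be at up to 0.149 CPM in DMXAA library 2 and up to 0.171 CPM in vehicle library 2, the lowest and highest such limits, for counting error only. Proximal tubule markers summed to 25600 and 24400 CPM in DMXAA and 19500 to 28200 CPM in vehicle. Of these 8 markers, 4 were higher in both DMXAA libraries than in all vehicle libraries and 0 were lower, where 13.7% of tested genes were higher. The vehicle libraries stood apart from one another: adipose markers summed to 675 CPM in vehicle library 1 against 27.7 to 55.5 CPM in the other 4, and endothelial markers to 465 CPM in vehicle library 2 against 672 to 745 CPM. Urothelial markers summed to 118 CPM in vehicle library 1 against 2.44 to 13.1 CPM in the other 4. The sum of the red blood cell markers separated the groups, at 112 and 95.1 CPM in DMXAA and 344, 244 and 169 CPM in vehicle. Of its 6 genes, 5 were lower in both DMXAA libraries than in all vehicle libraries, as were 12.3% of tested genes. The other, Slc4a1, also listed here for the collecting duct, was at 59.2 and 65.2 CPM in DMXAA and 63.4, 73.4 and 95.3 CPM in vehicle. The part of these markers in the results was not tested. Vehicle library 2 also had high levels of most Gbp transcripts, so each result is given by library, with its value when that library is left out.

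All 10 Gbp genes had higher mean levels in the DMXAA kidneys than in the vehicle kidneys, but no member passed the test after adjustment over all genes. The fitted log2 fold changes, DMXAA over vehicle, ran from 0.16 to 3.68 with a median of 0.58, beside a median of -0.015 over all 16226 genes tested. Of those genes, 46.9% had an estimate above 0. The members' standard errors (SE) were wide, with a median of 0.55 on the log2 scale beside 0.17 over all genes. All 10 members passed the expression filter. In edgeR's quasi-likelihood test the members had Benjamini-Hochberg adjusted p of 0.62 to 0.963, so 0 of them and 0% of all genes passed the threshold of 0.05. DESeq2 also called 0 members, while it called 59 genes (0.364%). At an unadjusted p below 0.05 edgeR counted 2 members, Gbp9 and Gbp11, both higher in DMXAA. It counted 3.89% of all genes as higher and 2.65% as lower. DESeq2 counted the same 2 members, but its share over all genes at that limit was not taken, so its count cannot be read against one. In bulk tissue, a change in the number of cells of a type and a change in RNA per cell cannot be told apart.

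How the groups were ordered depended on vehicle library 2. In all 10 genes both DMXAA libraries lay above vehicle libraries 1 and 3, an order found in 22.9% of tested genes. In 2 genes, Gbp9 and Gbp11, they lay above all 3 vehicle libraries, as in 13.7% of tested genes. Vehicle library 2 was the highest of the 5 libraries in 5 genes (Gbp2, Gbp3, Gbp4, Gbp6 and Gbp7), as in 25.8% of tested genes. It was at least 2 times as high as both other vehicle libraries in 8 genes, all but Gbp8 and Gbp9, as in 0.653% of tested genes. These shares describe single libraries and were not tested. The DMXAA mean was 1.67 to 26.8 times the mean of vehicle libraries 1 and 3, with a median of 2.70, and 0.567 to 6.27 times the level of vehicle library 2, with a median of 0.844.

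**Figure D2:**
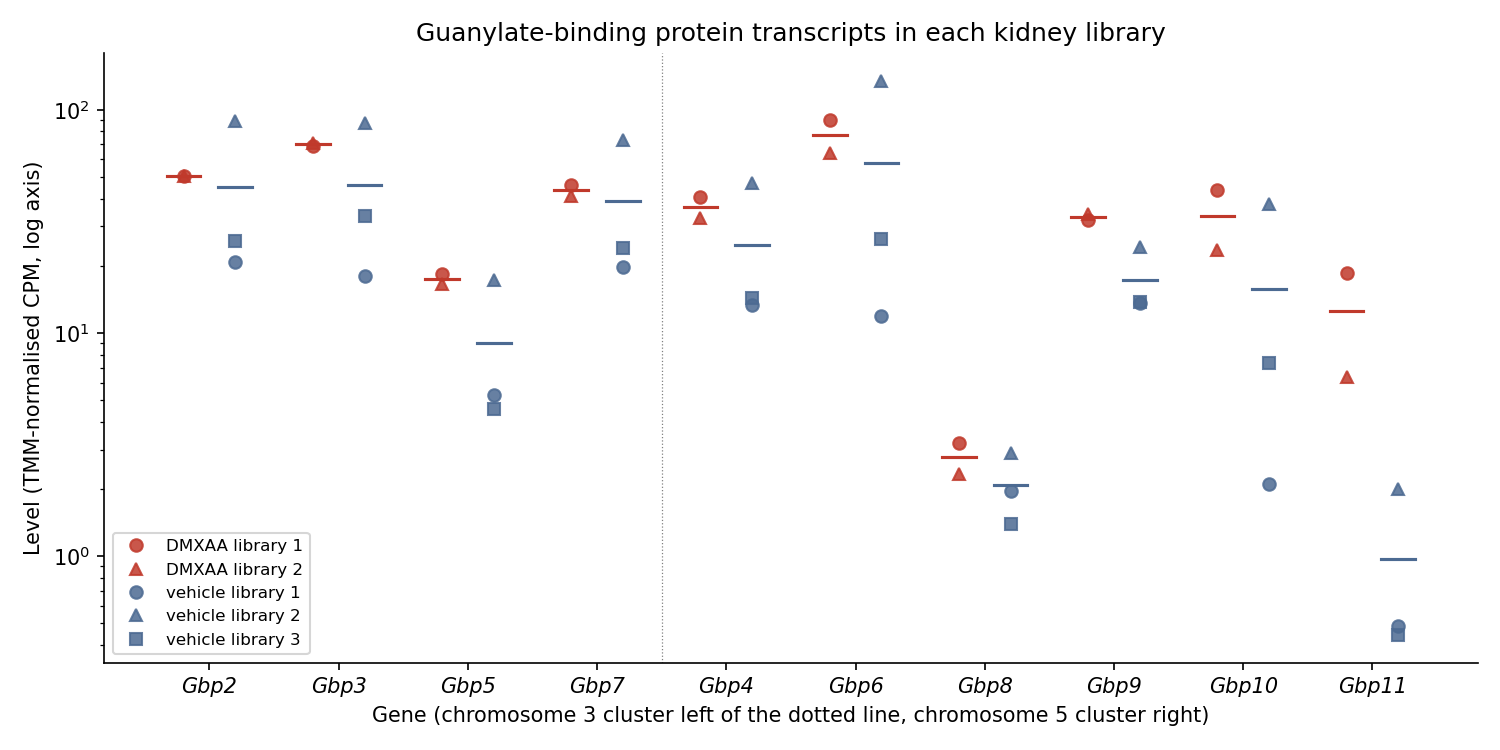
Level of each Gbp gene (CPM, log axis) in every library, with DMXAA libraries in red to the left and vehicle libraries in blue to the right, and bars at the group means. Vehicle library 2 (blue triangle) is the highest point for Gbp2, Gbp3, Gbp4, Gbp6 and Gbp7, and both DMXAA libraries lie above all vehicle libraries for Gbp9 and Gbp11.

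Among the chromosome 3 genes, Gbp2 encodes a lipid-anchored GBP that is recruited to Toxoplasma vacuoles in mouse cells. Gbp2 (ENSMUSG00000028270, chromosome 3 from 142620602 to 142638008, plus strand) was at 50.3 and 50.4 CPM in the DMXAA kidneys and at 20.7, 88.8 and 25.8 CPM in the vehicle kidneys. The DMXAA libraries were nearly equal and fell inside the vehicle range, above libraries 1 and 3 and below library 2. The means were 50.3 ± 0.0843 CPM in DMXAA (SD, n = 2) and 45.1 ± 37.9 CPM in vehicle (SD, n = 3), a log2 fold change of 0.16 (SE 0.58; edgeR adjusted p = 0.963).

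Gbp7, which supports oxidative and autophagic defence against bacteria in mouse macrophages, had the same order of libraries. Gbp7 (ENSMUSG00000040253, chromosome 3 from 142530342 to 142550149) was at 46.2 and 41.3 CPM in DMXAA and at 19.7, 73.6 and 24.0 CPM in vehicle. Its log2 fold change was 0.16 (SE 0.53; edgeR adjusted p = 0.955), and the groups overlapped through vehicle library 2 alone. Gbp3 (ENSMUSG00000028268, chromosome 3 from 142560026 to 142573209) was at 69.1 and 71.1 CPM in DMXAA and at 18.0, 87.4 and 33.3 CPM in vehicle. Its log2 fold change was 0.60 (SE 0.57; edgeR adjusted p = 0.826).

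Gbp5 encodes a lipid-anchored GBP that promotes NLRP3 inflammasome assembly in mouse macrophages. Gbp5 (ENSMUSG00000105504, chromosome 3 from 142493978 to 142522344) was at 18.3 and 16.6 CPM in DMXAA and at 5.30, 17.2 and 4.55 CPM in vehicle. Vehicle library 2 lay between the DMXAA libraries, and the other vehicle libraries lay far below them. The means were 17.4 ± 1.20 CPM (SD, n = 2) and 9.0 ± 7.08 CPM (SD, n = 3), a log2 fold change of 0.95 (SE 0.54; edgeR adjusted p = 0.758).

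On chromosome 5, Gbp11 had the largest difference of the family. GENCODE M21 annotates Gbp11 (ENSMUSG00000092021, chromosome 5 from 105323042 to 105346472, minus strand) as a polymorphic pseudogene. It had 336 and 127 counts in the DMXAA libraries and 9, 35 and 8 counts in the vehicle libraries, which is 18.6 and 6.32 CPM against 0.487, 1.99 and 0.444 CPM. The lower DMXAA library was above the highest vehicle library, and the DMXAA libraries differed 2.95-fold from each other. The log2 fold change was 3.68 (SE 0.71; edgeR adjusted p = 0.62), and 4.72 without vehicle library 2 (SE 0.66; edgeR adjusted p = 0.203). Among the settings tried, edgeR called Gbp11 only with no expression filter (adjusted p = 0.00536), where 0.121% of 28037 genes were called. In DESeq2 its adjusted p was 0.0672 with all libraries.

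Gbp9 (ENSMUSG00000029298, chromosome 5 from 105077630 to 105139539) was the other member whose groups did not overlap. It was at 32.2 and 34.3 CPM in DMXAA and at 13.6, 24.4 and 13.8 CPM in vehicle. Its vehicle spread was the narrowest of the family, with a coefficient of variation of 35.7% where the other members had 36.8% to 123%. The log2 fold change was 0.94 (SE 0.26; edgeR adjusted p = 0.724), and the DESeq2 adjusted p was 0.13. Leaving out any 1 library gave log2 fold changes of 0.79 to 1.28 for Gbp9 and 2.70 to 4.72 for Gbp11.

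Gbp6 and Gbp10, the near-identical pair, are both linked to the defence of mouse macrophages against bacteria, and had the widest ranges in vehicle. Gbp6 (ENSMUSG00000104713, chromosome 5 from 105270702 to 105293698) was at 89.8 and 64.3 CPM in DMXAA and at 11.9, 135 and 26.3 CPM in vehicle. Gbp10 (ENSMUSG00000105096, chromosome 5 from 105215699 to 105239533) was at 43.5 and 23.6 CPM in DMXAA and at 2.11, 37.9 and 7.32 CPM in vehicle. Vehicle library 2 was above both DMXAA libraries for Gbp6 and between them for Gbp10. Their log2 fold changes were 0.42 (SE 0.88; edgeR adjusted p = 0.924) and 1.09 (SE 0.95; edgeR adjusted p = 0.817).

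Gbp4, which in mouse cells restrains the interferon regulator IRF7, and Gbp8 complete the cluster. Gbp4 (ENSMUSG00000079363, chromosome 5 from 105115767 to 105139586) was at 40.6 and 32.9 CPM in DMXAA and at 13.3, 46.8 and 14.3 CPM in vehicle, with vehicle library 2 the highest. Gbp8 (ENSMUSG00000034438, chromosome 5 from 105014150 to 105139540) was the rarest member in DMXAA, at 3.22 and 2.34 CPM against 1.95, 2.90 and 1.39 CPM in vehicle, and its groups overlapped. Their log2 fold changes were 0.57 (SE 0.53; edgeR adjusted p = 0.825) for Gbp4 and 0.42 (SE 0.38; edgeR adjusted p = 0.822) for Gbp8. The annotated spans of Gbp4, Gbp8 and Gbp9 overlap, with 60 or 61 exonic bases shared, so reads there cannot be assigned to 1 gene. Among the family's other annotated genes, Gbp2b, once called Gbp1, had 9 and 4 counts in DMXAA and 9, 6 and 6 in vehicle, and the pseudogene Gbp2-ps had at most 1 count in any library.

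Leaving out vehicle library 2 changed the size of every fold change and the DESeq2 calls. That library was singled out by its high Gbp levels, and in all 10 genes both DMXAA libraries lay above vehicle libraries 1 and 3. Removing it therefore fixed the sign of the estimates and favoured small p-values. The values that follow describe how far the results rest on that library and are no separate support for a difference. Without vehicle library 2 the members' median log2 fold change was 1.43 and all 10 estimates were above 0. Gbp2 was at 1.12 (SE 0.13), Gbp4 at 1.41 (SE 0.14), Gbp6 at 2.01 (SE 0.37), Gbp10 at 2.83 (SE 0.57) and Gbp5 at 1.82 (SE 0.16). At an unadjusted p below 0.05 edgeR then counted 9 members, all but Gbp8, where it counted 6.73% of all genes as higher. It still called 0 of 16036 genes after adjustment, and the smallest adjusted p of a member was 0.0917, for Gbp4, Gbp5 and Gbp9. DESeq2 without that library called 8 members, all higher and all but Gbp8 and Gbp10, where it called 1.19% of all genes. Without vehicle library 1 the median was 0.31 and Gbp2, Gbp6 and Gbp7 had estimates below 0 (-0.19, -0.07 and -0.16). Without vehicle library 3 it was 0.35, with Gbp2 and Gbp7 below 0 (-0.12 and -0.091). With other single libraries left out DESeq2 called at most 1 member, Gbp11, without DMXAA library 2 (0.0176% of genes called) and without vehicle library 3 (0.257%). It called 0 members without DMXAA library 1 (0.146%) and without vehicle library 1 (0.876%). In edgeR 0 members were called with any library left out (0.0126% of genes without vehicle library 1, 0% without each of the others) or with the replicate number as a block (0.0247%).

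**Figure D3:**
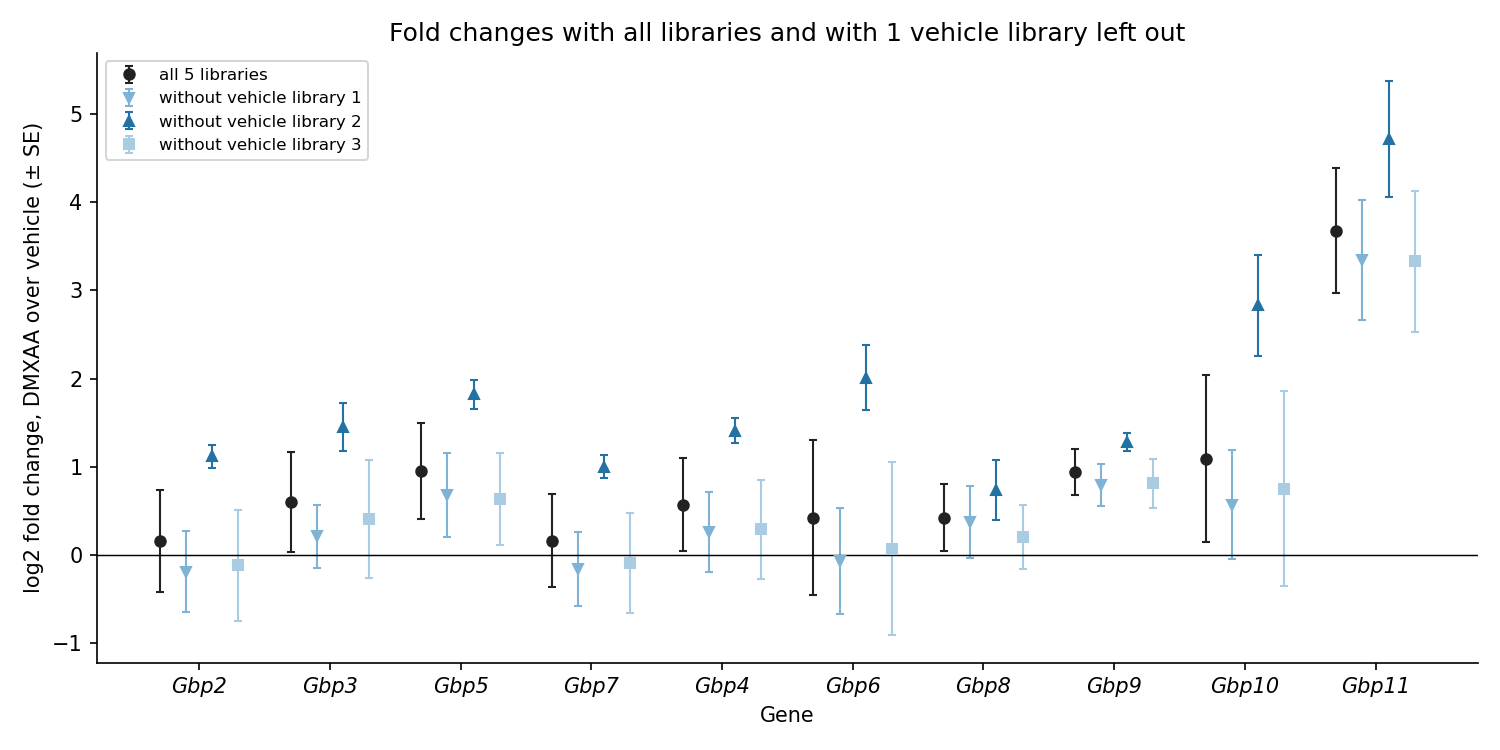
Log2 fold change of each Gbp gene, DMXAA over vehicle, with bars of 1 SE from edgeR, for all 5 libraries (black) and with 1 vehicle library left out (blues). Estimates without vehicle library 2 lie above those from all libraries for all 10 genes, with a median of 1.43 against 0.58.

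Levels were compared between members as CPM per kilobase of annotated exon, given as the mean of the DMXAA libraries with their range. The exon lengths include the bases shared with Gm43302, 29.0% for Gbp6 and 46.3% for Gbp10. That of Gbp7 includes the 11.3% shared with the annotated pseudogene Gm43802, which had 0 counts in every library. If reads in these shared bases were not counted, the levels of Gbp6, Gbp10 and Gbp7 are too low, so their places in the order are uncertain. In DMXAA kidneys the order was Gbp3 (21.5, 21.2 to 21.8), Gbp2 (20.0 in both libraries), Gbp6 (12.9, 10.8 to 15.1), Gbp10 (8.67, 6.10 to 11.2), Gbp7 (7.79, 7.36 to 8.22), Gbp9 (6.42, 6.22 to 6.63), Gbp4 (4.90, 4.39 to 5.42), Gbp11 (4.64, 2.35 to 6.93), Gbp5 (2.62, 2.50 to 2.75) and Gbp8 (0.807, 0.679 to 0.935). Gbp6 and Gbp10 overlapped, as did Gbp10 with Gbp7 and Gbp9, and Gbp11 with Gbp10, Gbp4, Gbp5 and Gbp9. In vehicle kidneys Gbp2 and Gbp3 again led, at 17.9 (8.21 to 35.3) and 14.2 (5.51 to 26.8) CPM per kilobase, and Gbp11 was last at 0.362 (0.165 to 0.739). Every neighbouring pair in the vehicle order overlapped.

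Summing the counts of each cluster keeps reads that near-identical members may have exchanged, but does not recover reads that were left uncounted. The chromosome 3 members together were at 184 and 179 CPM in DMXAA and at 63.6, 267 and 87.7 CPM in vehicle. The chromosome 5 members together were at 228 and 164 CPM in DMXAA and at 43.4, 249 and 63.6 CPM in vehicle. In both clusters the DMXAA libraries lay below vehicle library 2 and above the others. The log2 ratio of the group means was 0.38 for chromosome 3 and 0.72 for chromosome 5, and 1.26 and 1.87 without vehicle library 2.

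The make-up of the clusters differed between libraries as well as their sum. Gbp11 made up 8.18% (95% Wilson interval 7.38 to 9.06) and 3.86% (3.25 to 4.57) of the chromosome 5 counts in the DMXAA libraries. In the vehicle libraries its share was 1.12% (0.591 to 2.12), 0.80% (0.576 to 1.11) and 0.698% (0.354 to 1.37). These intervals cover counting error only, and those of the DMXAA libraries lie above those of the vehicle libraries. Gbp6 made up 39.4% and 39.3% of the cluster in DMXAA and 27.5%, 54.2% and 41.4% in vehicle, its largest share being in vehicle library 2. Gbp9 made up 14.1% and 20.9% in DMXAA and 31.4%, 9.80% and 21.7% in vehicle, its smallest share being in that library. On chromosome 3, Gbp5 made up 9.93% and 9.23% in DMXAA and 8.33%, 6.43% and 5.18% in vehicle, so its share was higher in both DMXAA libraries, although the intervals met those of vehicle library 1 (6.88 to 10.0).

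**Figure D4:**
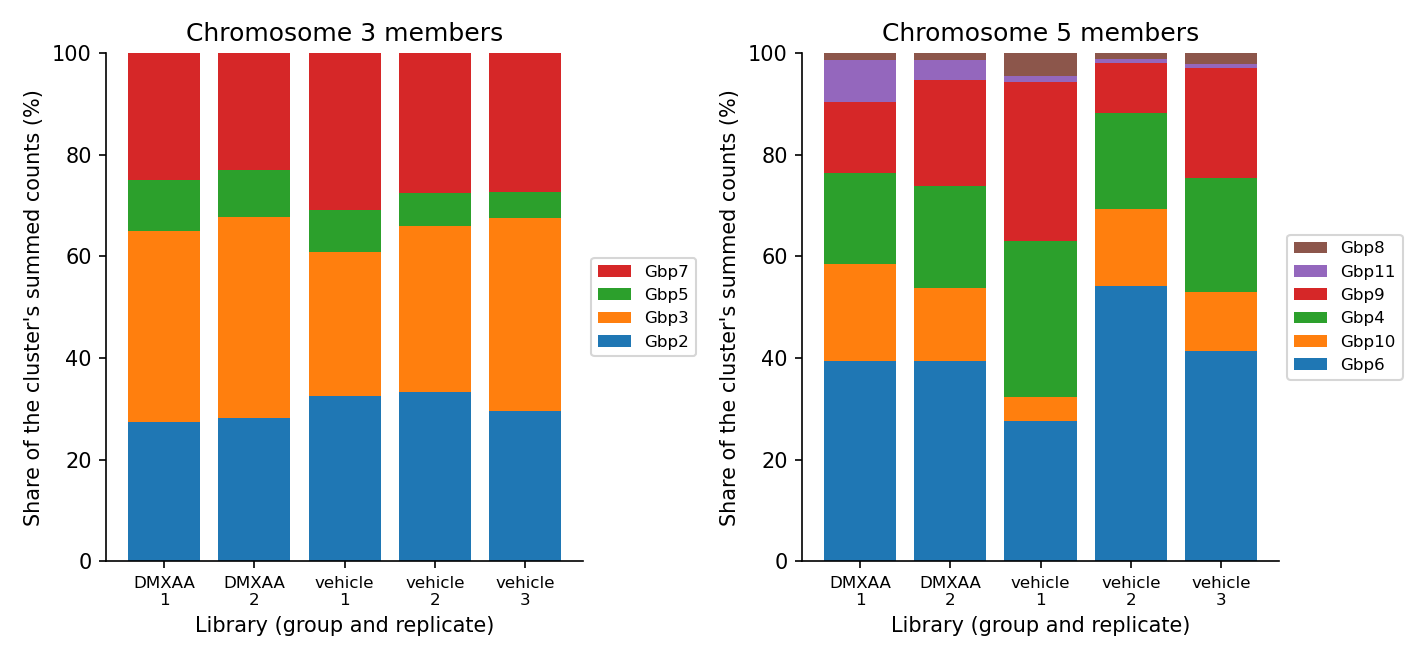
Share of each member (%) in the summed counts of its gene cluster, for the chromosome 3 genes (left panel) and the chromosome 5 genes (right panel), by library. Gbp11 (purple) makes up 8.18% and 3.86% in the DMXAA libraries and 0.698% to 1.12% in the vehicle libraries, and Gbp6 (blue, right panel) reaches 54.2% in vehicle library 2.

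A list of interferon receptor and signalling genes, which also held interferon outputs such as the chemokine genes Cxcl9 and Cxcl10 and the MHC regulators Ciita and Nlrc5, had estimates on both sides of 0. Of its 20 genes tested, edgeR called 0, 1 was higher in DMXAA at an unadjusted p below 0.05 (Jak1) and 0 were lower, with 11 estimates above 0 and a median log2 fold change of 0.015. Irf1, which binds Gbp promoters, was at 39.4 and 30.2 CPM in DMXAA and at 26.9, 88.5 and 25.9 CPM in vehicle. Vehicle library 2 was the highest library, as for 5 of the 10 Gbp genes, but by more, at least 2 times every other library. The log2 fold change of Irf1 was -0.44 (SE 0.54). Irf8, the myeloid partner of IRF1, was at 31.6 and 26.0 CPM in DMXAA and at 19.9, 44.2 and 27.2 CPM in vehicle.

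Ifng, which encodes interferon-gamma, had 1 count in DMXAA library 1, 1 in vehicle library 3 and 0 elsewhere, under the limit that a count of 0 allows. The kinase gene Jak1 was at 177 and 177 CPM in DMXAA and at 147, 142 and 157 CPM in vehicle, a log2 fold change of 0.25 (SE 0.089; edgeR adjusted p = 0.741). Irf9, the DNA-binding subunit of the type I interferon complex, had a log2 fold change of 0.46 (SE 0.21), the receptor subunit Ifngr2 of -0.27 (SE 0.12) and the feedback inhibitor Socs3 of -1.16 (SE 0.58). Without vehicle library 2 the list's median was 0.30, with 16 of 20 estimates above 0.

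The immunity-related GTPases, which act beside GBPs on vacuoles, depended on the same library. Of 11 genes tested edgeR called 0, with 5 estimates above 0 and a median log2 fold change of -0.11, and 1 was higher at an unadjusted p below 0.05. Vehicle library 2 was the highest library for 9 of the 11, as in 25.8% of tested genes. Without it all 11 estimates were above 0 with a median of 1.54. Iigp1 was at 135 and 106 CPM in DMXAA and at 35.6, 717 and 50.8 CPM in vehicle, so vehicle library 2 exceeded the DMXAA libraries by far more there than for any Gbp gene. For the other 2 genes vehicle library 2 was not the highest. These were 9930111J21Rik1, at 2.72 and 2.44 CPM in DMXAA and 1.14, 1.31 and 1.77 CPM in vehicle (log2 fold change 0.87, SE 0.31), and 9930111J21Rik2, at 4.61 and 4.73 CPM and 3.35, 2.90 and 3.99 CPM. In these 2 of 11 genes the DMXAA libraries lay above every vehicle library, as in 13.7% of all tested genes.

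Inflammasome and pyroptosis genes, through which GBPs act on the death of infected cells, had estimates on both sides of 0. Of 14 tested, edgeR called 0, with 0 at an unadjusted p below 0.05 in either direction, 5 estimates above 0 and a median of -0.04, which was -0.062 without vehicle library 2. Casp4, which encodes the mouse sensor of cytosolic lipopolysaccharide, was at 2.44 and 2.74 CPM in DMXAA and at 2.22, 1.99 and 2.33 CPM in vehicle. Gsdmd, the pore-forming effector, was at 4.94 and 5.12 CPM in DMXAA and at 5.95, 7.85 and 6.54 CPM in vehicle. The log2 fold changes of Gsdmd, the adaptor gene Pycard and the cytokine gene Il1b were -0.43 (SE 0.20), -0.56 (SE 0.29) and -0.88 (SE 0.48), and that of the NLRP3 partner Nek7 was 0.18 (SE 0.081).

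Among autophagy conjugation genes, whose products place GBPs on vacuoles in mouse cells, edgeR called 0 of 13, with 5 estimates above 0, 1 lower at an unadjusted p below 0.05 and a median of -0.085. That gene, Map1lc3a, was at 63.7 and 62.5 CPM in DMXAA and at 79.8, 84.9 and 71.8 CPM in vehicle (log2 fold change -0.32, SE 0.10; edgeR adjusted p = 0.724). The next by p were Atg7 (-0.18, SE 0.10), Map1lc3b (-0.19, SE 0.10) and Gabarapl1 (-0.32, SE 0.18). Vehicle library 2 was the highest library for 11 of these 13 genes, as in 25.8% of tested genes. The counts were 8 of 20 in the interferon signalling list and 4 of 14 in the inflammasome list. The autophagy list's median was 0.021 without vehicle library 2. Of 11 prenylation and CaaX processing genes, which attach and trim the lipid anchor, edgeR called 0, with 4 estimates above 0 and 7 below and a median of -0.03, and 3 were higher and 0 lower at an unadjusted p below 0.05, where 3.89% of all tested genes were higher and 2.65% lower. The 3 were Rabggta (log2 fold change 0.29, SE 0.11), the protease gene Zmpste24 (0.21, SE 0.083) and the prenyltransferase subunit gene Pggt1b (0.37, SE 0.16), and Rabggtb was at -0.22 (SE 0.12).

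The genes whose profile over the 5 libraries lay nearest to the family's mean were then listed, from 13318 genes with an average log2 CPM of at least 1. Likeness was the root mean square distance between log2 CPM profiles, each centred on its own mean. The 6 nearest were Gm4951 (distance 0.197), Gm5431 (0.212), the interferon-induced gene Ifit1 (0.238), the tetherin gene Bst2 (0.244), Rtp4 (0.263) and Irgm1 (0.276). Gm4951 and Irgm1 were both in the list of immunity-related GTPases above. The median distance over all 13318 genes was 0.918. Within the family, Gbp5 (0.203), Gbp4 (0.209) and Gbp3 (0.254) lay closest to the mean and Gbp10 (0.764) and Gbp11 (1.26) farthest. Bst2 was at 136 and 159 CPM in DMXAA and at 41.4, 167 and 63.2 CPM in vehicle. Irgm1 was at 366 and 407 CPM in DMXAA and at 83.0, 527 and 109 CPM in vehicle. All 6 had groups that overlapped through vehicle library 2, which choosing them by likeness to the family mean favoured, so it is no separate result. Their edgeR adjusted p ran from 0.75 to 0.843.

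**Figure D5:**
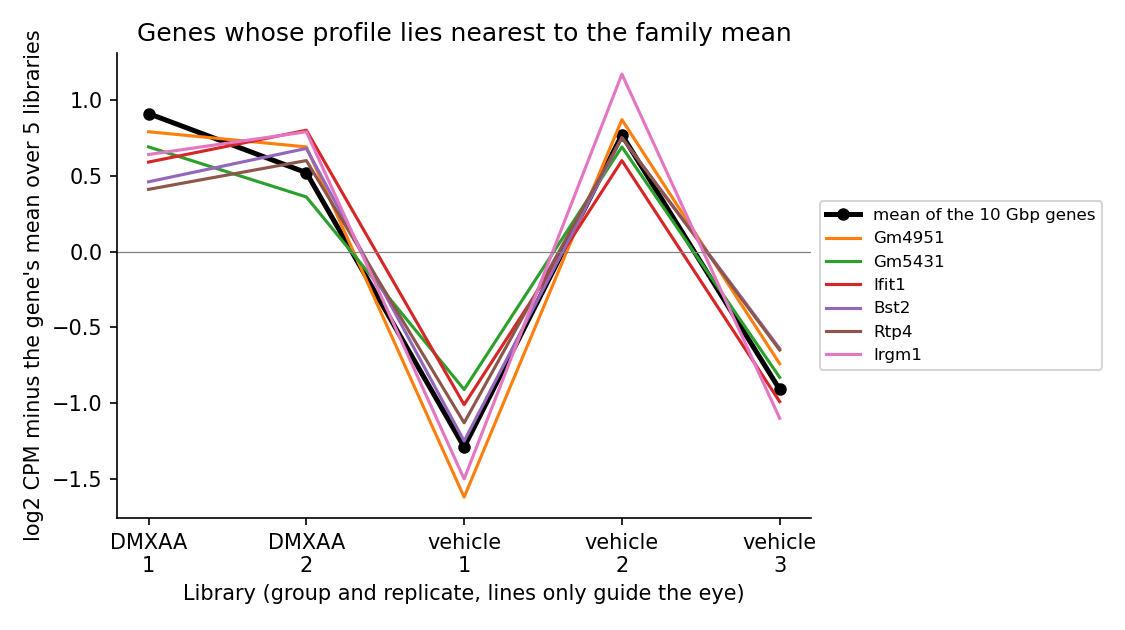
Log2 CPM minus each gene's mean over the 5 libraries (vertical axis) for the mean of the 10 Gbp genes (black) and the 6 nearest genes (colours), by library, with DMXAA libraries on the left. The family mean is at 0.91 and 0.52 in the DMXAA libraries and at -1.29, 0.77 and -0.91 in vehicle libraries 1 to 3.

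Summed markers of immune cells, which express Gbp genes strongly, are set here beside the Gbp levels. The 13 T and NK cell markers summed to 32.0 and 21.5 CPM in DMXAA and to 17.4, 19.4 and 28.0 CPM in vehicle. The 10 macrophage and dendritic markers summed to 256 and 232 CPM in DMXAA and to 206, 203 and 298 CPM in vehicle. The 7 neutrophil and monocyte markers summed to 15.4 and 14.5 CPM in DMXAA and to 13.7, 32.1 and 64.9 CPM in vehicle, with Ly6g at 0 in both DMXAA libraries and vehicle library 1. The 6 B cell markers summed to 16.5 and 6.47 CPM in DMXAA and to 11.9, 11.2 and 21.7 CPM in vehicle. Markers whose DMXAA libraries both lay above or both below all vehicle libraries numbered 4 above and 1 below for T and NK cells, 0 and 1 for macrophages and dendritic cells, 0 and 1 for neutrophils and monocytes, and 0 and 2 for B cells, where 13.7% of tested genes lay above and 12.3% below. The part of these cells in the Gbp levels was not tested.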

How the data were processed

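The authors deposited the RNA-seq as 1 table of unnormalized counts by Ensembl gene, with a column for each sample. The submitters' processing notes name HISAT2, featureCounts, Subread, DESeq2 1.16.1 and the build mm10. The part of each tool, the gene models, the handling of multi-mapping reads and whether counting used strand were not given in the sources used here. Without strand a gene and its antisense partner cannot be told apart. TruSeq and NEBNext Ultra kits are both named in the labels' protocols, with no word on which library used which, so a kit batch could not be tested. Columns were matched to samples by name (CO as vehicle, XA as DMXAA, with the replicate number).

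Symbols, coordinates and transcripts came from GENCODE M21 on GRCm38, the assembly of mm10, which named 99.9% of the 54532 IDs. Main test: edgeR 4.0.16 in R 4.3.3, quasi-likelihood F test, two-sided, TMM scaling, default expression filter (16226 genes), group as the only term, Benjamini-Hochberg adjustment over all genes. The SE is the absolute log2 fold change divided by the square root of F. Alternatives were DESeq2 1.42.0, relative log expression (RLE) factors, no filter, at least 1 CPM in 2 libraries, robust empirical Bayes, the replicate number as a block and each library left out; DESeq2 with each library left out was added after the data were seen. Every pair of libraries within a group differed by more than sampling noise (chi-square over its degrees of freedom was 7.35 to 38.5).

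The 10 genes and the gene lists were chosen with earlier results of these data known. Named genes were all members, the other annotated Gbp genes, up to 4 genes per list with the smallest unadjusted p, Ifng, Irf1, Irf8 and Casp4, and the 6 genes nearest in profile. Gm43302 and Gm43802 were named after their values were seen. A result for 1 further gene that the rule names is not reported here.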

Additional observations from a re-analysis of the deposited data

How the results depend on the processing

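The sign of the 10 fold changes stayed above 0 under DESeq2, RLE factors, both other filters, robust empirical Bayes and the replicate block, and when either DMXAA library or vehicle library 2 was left out. Leaving out 1 library at a time, the members' median log2 fold change ran from 0.31 to 1.43 in edgeR and from 0.32 to 1.43 in DESeq2, beside 0.58 with all libraries. Gbp2, Gbp6 and Gbp7 turned below 0 without vehicle library 1 (-0.19, -0.07 and -0.16 in edgeR; -0.19, -0.063 and -0.16 in DESeq2), and Gbp2 and Gbp7 without vehicle library 3 (-0.12 and -0.091; -0.12 and -0.093), while they reached 1.12, 2.01 and 1.0 in edgeR and 1.11, 2.01 and 1.0 in DESeq2 without vehicle library 2. The log2 ratio of the summed chromosome 5 members ran from 0.33 to 1.87 and that of chromosome 3 from 0.034 to 1.26, both highest without vehicle library 2. The number of members called was 0 with all libraries, 1 without an expression filter (Gbp11), 0 with each library left out in edgeR, and 0 to 8 with each left out in DESeq2, 8 being without vehicle library 2. Over all genes the count was 0 in edgeR, 59 in DESeq2, 34 without a filter, 0 to 2 with 1 library left out in edgeR, and in DESeq2 25 without DMXAA library 1, 3 without DMXAA library 2 and 139, 191 and 41 without vehicle libraries 1, 2 and 3. The cause of these changes was not tested. The titles number samples 1 and 2 in both groups but are not said to mark pairs, so the numbers were not taken as pairs. Deviations of same-numbered samples from their group means correlated at 0.075 and 0.081. The deviations of the 2 DMXAA libraries mirror each other, so these correlations say little about pairing. With the replicate block edgeR called 4 genes and 0 members, and the members' median was 0.81. With 2 DMXAA libraries, the fit without one of them assumes that the other varies like the vehicle libraries. Depth limits Gbp2b, Ifng and, in vehicle, Gbp11, which had 8 to 35 counts there.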
